A study of Rattus norvegicus with 6 samples.

Results

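The genes described here are 36 that encode the synaptic vesicle and release machinery, in single nuclei from the nucleus accumbens shell of the rat. They were chosen by symbol: a fixed list of synaptotagmins, SNARE proteins, complexins, active zone scaffolds, priming factors, synapsins, Rab3 GTPases and SV2 proteins was looked up among the gene names of the deposited count matrices. Of the 36 listed genes, 35 were found among 32883 features, and Sv2b is not analysed here. The tissue came from Long-Evans rats of 90 to 100 days, housed in same-sex pairs, and the labels name no treatment and no transgene. Each library holds nuclei from frozen tissue of 4 animals of one sex, and there were 3 female pools and 3 male pools, 24 animals in all. A pool gives 1 value, so a p-value here measures the spread between pools and not between single animals.

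Transmitter release depends on a small set of proteins that work in sequence. Synapsins tether vesicles to one another in the terminal, Rab3 GTPases on the vesicle bind RIM proteins of the active zone, and Munc13 proteins, which the Unc13 genes encode, prime docked vesicles by opening syntaxin for assembly. Syntaxin, SNAP-25 and synaptobrevin (VAMP) then form the SNARE complex, complexin holds the complex ready, and a synaptotagmin on the vesicle binds calcium and sets off fusion. Most neurons of the nucleus accumbens are medium spiny neurons (MSNs), GABA neurons that project out of the nucleus and carry either the D1 or the D2 dopamine receptor. The remainder include sparse GABA interneurons and large cholinergic interneurons, so the same machinery serves neurons with very different terminals.

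After filters on depth, mitochondrial share and doublets, 34362 nuclei with 188073584 UMIs (unique molecule counts) were kept, 2807 to 14325 nuclei a library, and 24969 of them (72.7%) fell in named classes. The nuclei were clustered without the members, and a cluster was named only from marker genes, with "-like" because the authors' own annotation was not used. The share of barcodes removed for mitochondrial reads ran from 1.55% to 40.7% over the libraries, and 3 to 52 barcodes were shared by any pair of libraries (at most 0.645% of the smaller one). Levels are UMIs per 1000000 UMIs of a class in a library (CPM). They are listed in the order of the pool numbers, and are compared across classes only within a gene, since nuclear counts depend on gene length and introns. D1 MSN-like nuclei (5131) had 50.0 CPM of Pdyn and 21.4 CPM of Drd1, and D2 MSN-like nuclei (3453) had 778 CPM of Drd2 and 233 CPM of Adora2a. In the D1 class Drd2, at 25.9 CPM, was above Drd1, and the D2 class had 2.43 CPM of Drd1 and 9.62 CPM of Pdyn. In female pool 2, 91.1% of the D1 MSN-like nuclei came from the smaller of the 2 clusters in that class, against 25.2% to 34.7% in the other libraries, so D2-minus-D1 differences are also given without that pool. Another MSN-type cluster (1757 nuclei) had 318 CPM of Otof against 156 and 140 CPM in the D1 and D2 classes. Its mean Drd1 (21.9 CPM) was close to that of the D1 class, and it had 339.8 CPM of Tac1 against 247 CPM there and 148 CPM of Drd2. It could not be given a cell type name from the markers and is called the Otof-rich cluster. Of the interneuron classes, the 251 cholinergic-like nuclei had 640 CPM of Chat, although Slc18a3, the vesicular acetylcholine transporter, was listed at 0 in every class. The Sst/Nos1 interneuron-like class (406 nuclei) had 1.89 CPM of Npy. The Pvalb/Kit interneuron-like class (313 nuclei) had 387 CPM of Kit but 8.74 CPM of Pvalb. The Vip interneuron-like class (282 nuclei) had a mean of 56.4 CPM of Vip, from 0 to 149 CPM over the libraries. Septal-like, pallidal-like and Vip interneuron-like nuclei and 2 further neuron clusters are used for levels only. These are cluster 10, led by Chst9, Col14a1 and Grm8, and cluster 12, led by Hpse and Tll1. Both had far less of the MSN marker Pde10a (373 and 298 CPM) than the D1 class (2697 CPM). Rgs9, another MSN marker, was at 280 CPM in cluster 10 and 624 CPM in cluster 12, against 757 CPM in the D1 class. By the naming rule they matched the Grm8 and Drd3 MSN-like markers (3 of 5 each), but they are called by number here.

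The release genes differed widely in how evenly the 11 neuron classes held them. Glutamatergic-like nuclei, nearly all from 2 libraries, are not among the 11. They held more Unc13b, Stx1a and Syt17 than the highest of the 11 class means, as listed under the other observations. Here and below, the highest or lowest neuron class is meant within the 11. For 33 members the ratio of the highest to the lowest class mean could be formed, and it ran from 1.32 for Syt11 to 46.6 for Syt6, with a median of 3.30. It was under 2 for 8 members, between 2 and 5 for 12 and at least 5 for 13. The even members included the scaffold gene Bsn and the synapsin gene Syn1, and the uneven ones included Syt6, Syt10, Syt17, Unc13c, Sv2c and Rab3b. The cholinergic-like class was highest for 7 members (Syt1, Stx1a, Snap25, Rims1, Unc13b, Unc13c and Sv2c). Cluster 12 and Vip interneuron-like nuclei were highest for 6 members each and Pvalb/Kit nuclei for 5. These orders are descriptions: only for Syt6 and Cplx2, both in cluster 12, was every library of the highest class above every library of the second. Syt11 and Rab3c were no higher in any neuron class than in the highest glia class, where oligodendrocyte-like nuclei had 295 and 799 CPM.

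**Figure D1:**
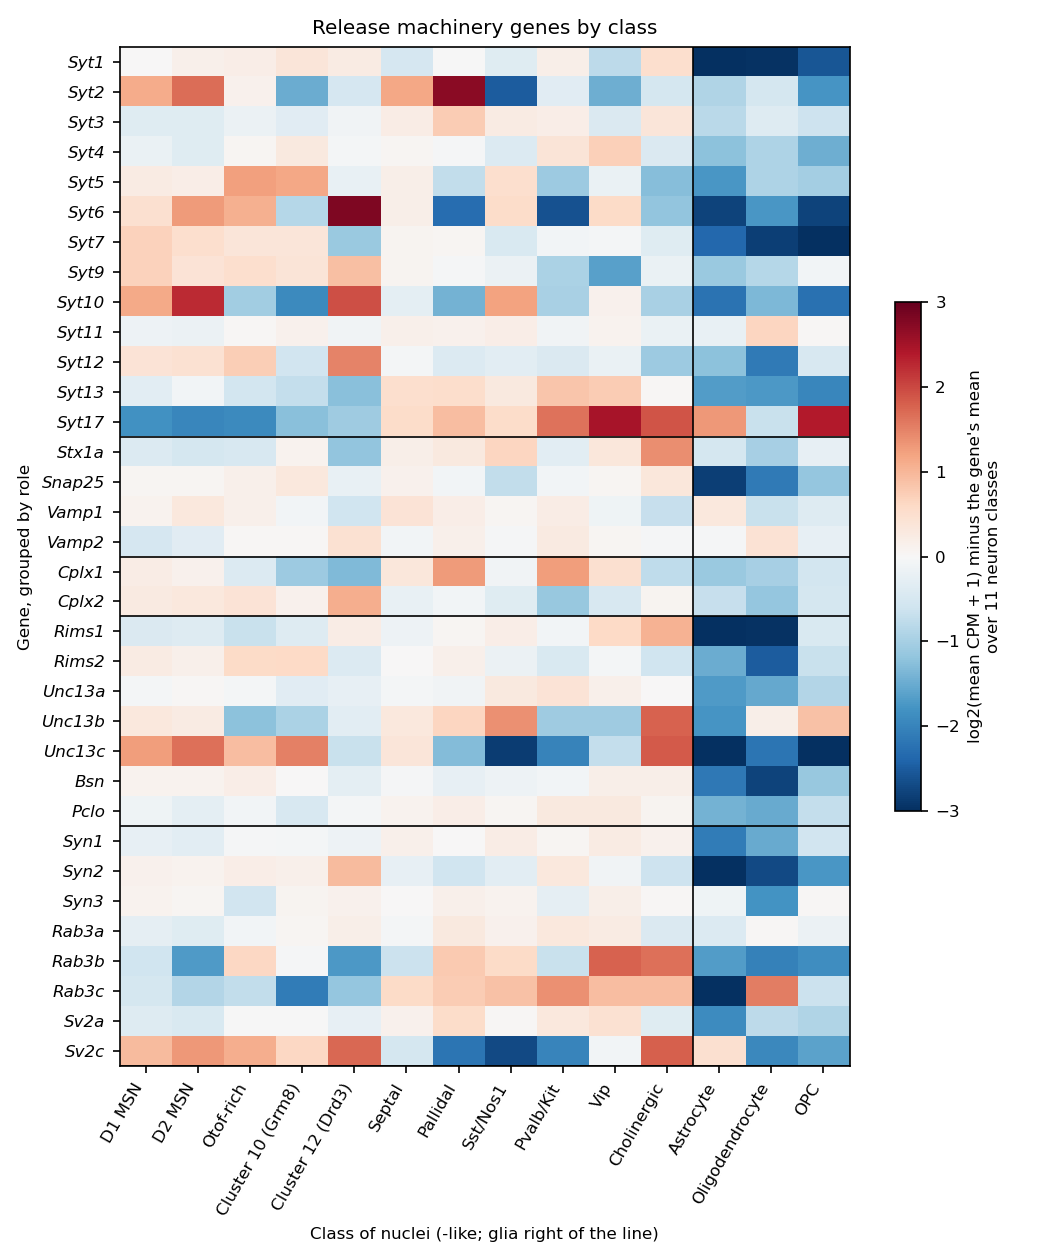
Level of each release gene (vertical axis, grouped by role) in each class (horizontal axis), as log2(mean CPM + 1) over 6 libraries minus the gene's own average over the 11 neuron classes, with colours clipped at 3 in either direction. Syt6, Unc13c and Sv2c have both strong red and strong blue cells among the neuron classes, and Bsn and Syn1 stay near white there.

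Differences between classes were tested within libraries, over all genes, at an adjusted p under 0.05 (edgeR's quasi-likelihood test, Benjamini-Hochberg adjustment). Cplx3, a complexin known from retinal ribbon synapses, had 80 UMIs in all nuclei and was not tested, which leaves 34 of the 36 listed genes in most comparisons. Between the projection classes, 7 members were higher and 6 lower in D2 than in D1 MSN-like nuclei, 13 of 34, where the background was 14.4% of all genes tested (6.59% higher, 7.8% lower). In the Otof-rich cluster against the mean of both MSN classes, 11 members were higher and 9 lower, 20 of 34, against 28% of all genes (14.5% higher, 13.5% lower). Against the same MSN classes, 9 members were higher and 15 lower in Sst/Nos1 nuclei (24 of 34, background 38.6%, of which 18.1% higher and 20.4% lower). In Pvalb/Kit nuclei 13 were higher and 15 lower (28 of 34, background 39%, of which 19.4% higher and 19.6% lower). In cholinergic-like nuclei 10 were higher and 15 lower (25 of 34, background 44.7%, of which 21.5% higher and 23.2% lower). Between the 2 interneuron classes, 9 members were higher in Pvalb/Kit and 7 in Sst/Nos1 nuclei, 16 of 30 tested, against 28.6% of all genes (15.6% higher, 13% lower). Syt2, Syt9, Syt17 and Vamp1, as well as Cplx3, were not tested between these classes. The MSN classes against glia-like nuclei gave 28 higher and 3 lower of 34, where 72.2% of all genes were called (35.3% higher, 36.9% lower). The median log2 difference of the members was near 0 for D2 against D1 (-0.0025), 0.067 in the Otof-rich cluster, -0.31 in Sst/Nos1, 0.033 in Pvalb/Kit, -0.20 in cholinergic-like and 0.24 between the interneuron classes. Over all genes these medians lay between -0.030 and 0.0065, and against glia the members' median was 1.34 beside -0.034 for all genes. The comparisons with MSNs share the D1 and D2 sums and are therefore set side by side without a test of overlap.

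**Figure D2:**
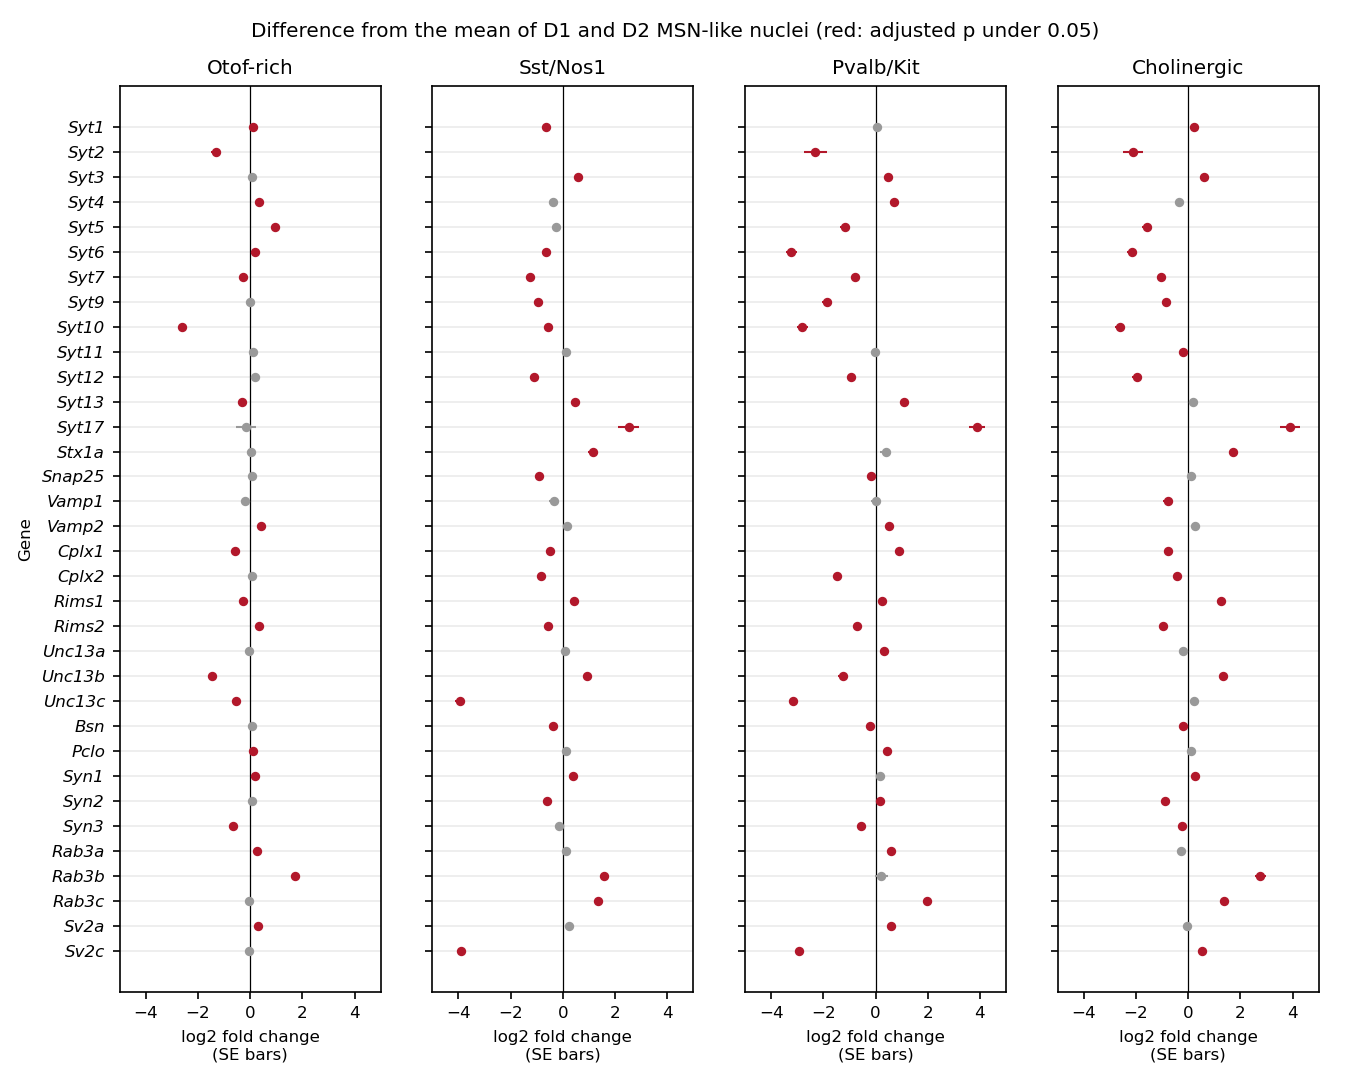
Log2 difference (horizontal axis) of each release gene (vertical axis) from the mean of D1 and D2 MSN-like nuclei, in 4 panels for the Otof-rich cluster and the Sst/Nos1, Pvalb/Kit and cholinergic-like classes. Red points were called at an adjusted p under 0.05, grey points were not, bars are 1 SE on either side, and members lie on both sides of 0 in each panel. Syt2, with no UMI in Sst/Nos1 nuclei, is left out of that panel.

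The synaptotagmins include the calcium sensors of release, though not every member of the family is one, and Syt1 is the fast sensor for synchronous release. In D1 MSN-like nuclei its level was 4412, 4526 and 5083 CPM in the female pools and 5088, 4217 and 3359 CPM in the male pools. In Sst/Nos1 nuclei it was 4118, 2837 and 4091 CPM in the female pools and 3979, 3038 and 2392 CPM in the male pools. The Sst/Nos1 value was the lower one in each library, although the ranges overlapped, and the difference from both MSN classes was called (log2 fold change -0.66, SE 0.069, adjusted p = 2.43e-11). Small rises in D2 over D1 nuclei (0.17, and 0.17 without female pool 2) and in cholinergic-like nuclei over the MSN classes (0.23) were called as well. In Pvalb/Kit nuclei it was not called (log2 fold change 0.039, SE 0.055, adjusted p = 0.619). Syt2, the fast sensor known from brainstem and fast-spiking terminals, was highest in pallidal-like nuclei at 35.8 ± 15.1 CPM (SD, n = 6). It was at 17.1 ± 5.14 CPM in D2 and 11.2 ± 2.08 CPM in D1 nuclei, a called difference (log2 fold change 0.69, SE 0.11, adjusted p = 9.04e-06; 0.69 without female pool 2). Means in OPC-, astrocyte- and oligodendrocyte-like nuclei were 0.647 to 2.92 CPM of Syt2. In the Otof-rich cluster it was lower than in the MSN classes (log2 fold change -1.31, SE 0.19, adjusted p = 4.86e-07), with this sign in 5 of 6 libraries. In Sst/Nos1 nuclei it had 0 UMIs in all 6 libraries. Taking a floor of 3 counts over the 2076293 UMIs of that class (1.44 CPM), Syt2 was at least 7.57-fold lower there than in D1 and at least 12.2-fold lower than in D2 nuclei, a limit that covers counting error only. Syt2 was lower than in the MSN classes in Pvalb/Kit (log2 fold change -2.31, SE 0.44, adjusted p = 4.13e-05; -1.57 with nuclei scored as doublets kept) and in cholinergic-like nuclei (log2 fold change -2.12, SE 0.39, adjusted p = 3.97e-05). Each of these differences had this sign in 5 of 6 libraries.

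Among the synaptotagmins, Syt10 and Syt6 had the largest differences between D2 and D1 nuclei. Syt10, a calcium sensor known for regulated secretion of IGF-1 in olfactory bulb neurons, was at 107, 119.9 and 116 CPM in the female pools and 115, 114 and 76.6 CPM in the male pools in D2 nuclei. D1 nuclei had 48.7, 60.2 and 51.5 CPM in the female pools and 59.3, 46.1 and 35.2 CPM in the male pools. Every D2 library was above every D1 library, and the difference was called (log2 fold change 1.11, SE 0.054, adjusted p = 6.20e-20; 1.13 without female pool 2). The Otof-rich cluster lay below both without overlap, at 3.38 to 16.6 CPM (log2 fold change -2.62, SE 0.11, adjusted p = 2.42e-21; -3.31 with finer clusters). Pvalb/Kit (log2 fold change -2.80, SE 0.21, adjusted p = 1.94e-14) and cholinergic-like nuclei (log2 fold change -2.61, SE 0.18, adjusted p = 3.82e-13) were lower too. Sst/Nos1 nuclei were at 52.4 ± 16.4 CPM, and Pvalb/Kit nuclei were well below them (log2 fold change -2.13, SE 0.33, adjusted p = 8.15e-06). Means in OPC-, astrocyte- and oligodendrocyte-like nuclei were 3.96 to 8.17 CPM of Syt10, beside 5.16 CPM in cluster 10, its lowest neuron class. Syt6 was also higher in D2 than in D1 nuclei in each library (log2 fold change 0.80, SE 0.051, adjusted p = 3.53e-16; 0.74 without female pool 2). In D2 nuclei it was at 199.8, 189.7 and 194 CPM in the female pools and 189, 151 and 121 CPM in the male pools. In Pvalb/Kit nuclei it was at 10.9, 15.4 and 23 CPM in the female pools and 14.9, 0 and 0 CPM in the male pools. No Pvalb/Kit library reached a D2 library, and the fall against both MSN classes was called (log2 fold change -3.23, SE 0.20, adjusted p = 4.93e-17; -2.37 with nuclei scored as doublets kept and -3.85 without female pool 3). Cholinergic-like nuclei were lower as well (log2 fold change -2.16, SE 0.17, adjusted p = 1.01e-11). Sst/Nos1 nuclei had 105 ± 16.7 CPM, and Pvalb/Kit nuclei were below them (log2 fold change -2.62, SE 0.27, adjusted p = 6.63e-09; -1.84 with doublet-scored nuclei kept). Cluster 12 had the highest Syt6, 339 to 642 CPM, above every library of every other neuron class.

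Syt17, an atypical synaptotagmin, ran the other way. It was at 0 to 4.74 CPM in D1 and 0.377 to 4.82 CPM in D2 nuclei, and in Pvalb/Kit nuclei at 27.3, 20.6 and 33.4 CPM in the female pools and 33.5, 33.3 and 56 CPM in the male pools. Each Pvalb/Kit library was above each MSN library (log2 fold change 3.89, SE 0.31, adjusted p = 7.84e-14). Sst/Nos1 nuclei also exceeded the MSN classes in each library (log2 fold change 2.52, SE 0.40, adjusted p = 7.02e-07). Cholinergic-like nuclei did so in 5 of 6 libraries (log2 fold change 3.89, SE 0.38, adjusted p = 6.50e-10; 3.19 without female pool 1), and female pool 2 had no Syt17 UMI in its 16 cholinergic-like nuclei. OPC-like nuclei held 57.9 CPM and astrocyte-like nuclei 26.8 CPM of Syt17, and the MSN classes were below glia (log2 fold change -3.34, SE 0.26, adjusted p = 4.16e-13). The astrocyte-like marker genes summed to 54.6 to 310 CPM in Pvalb/Kit nuclei against 50.5 to 101 CPM in D1 nuclei, and their part in the Syt17 difference was not tested. Syt5, another calcium-binding synaptotagmin, was highest in the Otof-rich cluster, with 152, 236 and 75.9 CPM in the female pools and 102, 170.2 and 208 CPM in the male pools. D1 nuclei had 68.6, 121 and 44.3 CPM in the female pools and 54, 81.4 and 104 CPM in the male pools. The ranges overlapped, but the Otof-rich cluster was higher in each library, and the rise was called (log2 fold change 0.95, SE 0.059, adjusted p = 2.16e-16). In cholinergic-like nuclei Syt5 was lower than in the MSN classes (log2 fold change -1.58, SE 0.17, adjusted p = 8.43e-09), and Pvalb/Kit were below Sst/Nos1 nuclei (log2 fold change -1.0, SE 0.28, adjusted p = 0.00692), a call lost without female pool 2 (adjusted p = 0.0639).

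Syt7, the sensor of asynchronous release, was highest in D1 nuclei at 132 ± 22.9 CPM (SD, n = 6) and lower in D2 nuclei (log2 fold change -0.19, SE 0.043, adjusted p = 9.75e-04; -0.20 without female pool 2). In Sst/Nos1 nuclei it lay below every D1 library (log2 fold change -1.25, SE 0.12, adjusted p = 8.04e-13). Syt9, another fast sensor, was called lower in D2 than in D1 nuclei (log2 fold change -0.23, SE 0.057, adjusted p = 0.00357; -0.22 without female pool 2). That call was lost with DESeq2 (adjusted p = 0.0694) and with finer clusters (adjusted p = 0.565). Syt12 was lower in Sst/Nos1 (log2 fold change -1.12, SE 0.16, adjusted p = 5.15e-08, with this sign in 5 of 6 libraries) and in cholinergic-like nuclei (log2 fold change -1.95, SE 0.19, adjusted p = 8.22e-10). Syt13 rose in Pvalb/Kit nuclei (log2 fold change 1.11, SE 0.14, adjusted p = 1.30e-08), and Syt4, which does not serve as a fast calcium sensor, rose there (log2 fold change 0.69, SE 0.13, adjusted p = 2.00e-05), also against Sst/Nos1 nuclei (log2 fold change 1.03, SE 0.20, adjusted p = 1.40e-04), and in the Otof-rich cluster (log2 fold change 0.35, SE 0.071, adjusted p = 1.09e-04). Syt3 was higher in the Sst/Nos1 (0.57), Pvalb/Kit (0.48) and cholinergic-like (0.59) classes by called log2 differences. Of the class comparisons, Syt11, close to Syt4 in sequence, was called only in cholinergic-like nuclei (-0.21) and against glia (-0.24). The glia call was lost without male pool 2 (adjusted p = 0.0814).

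**Figure D3:**
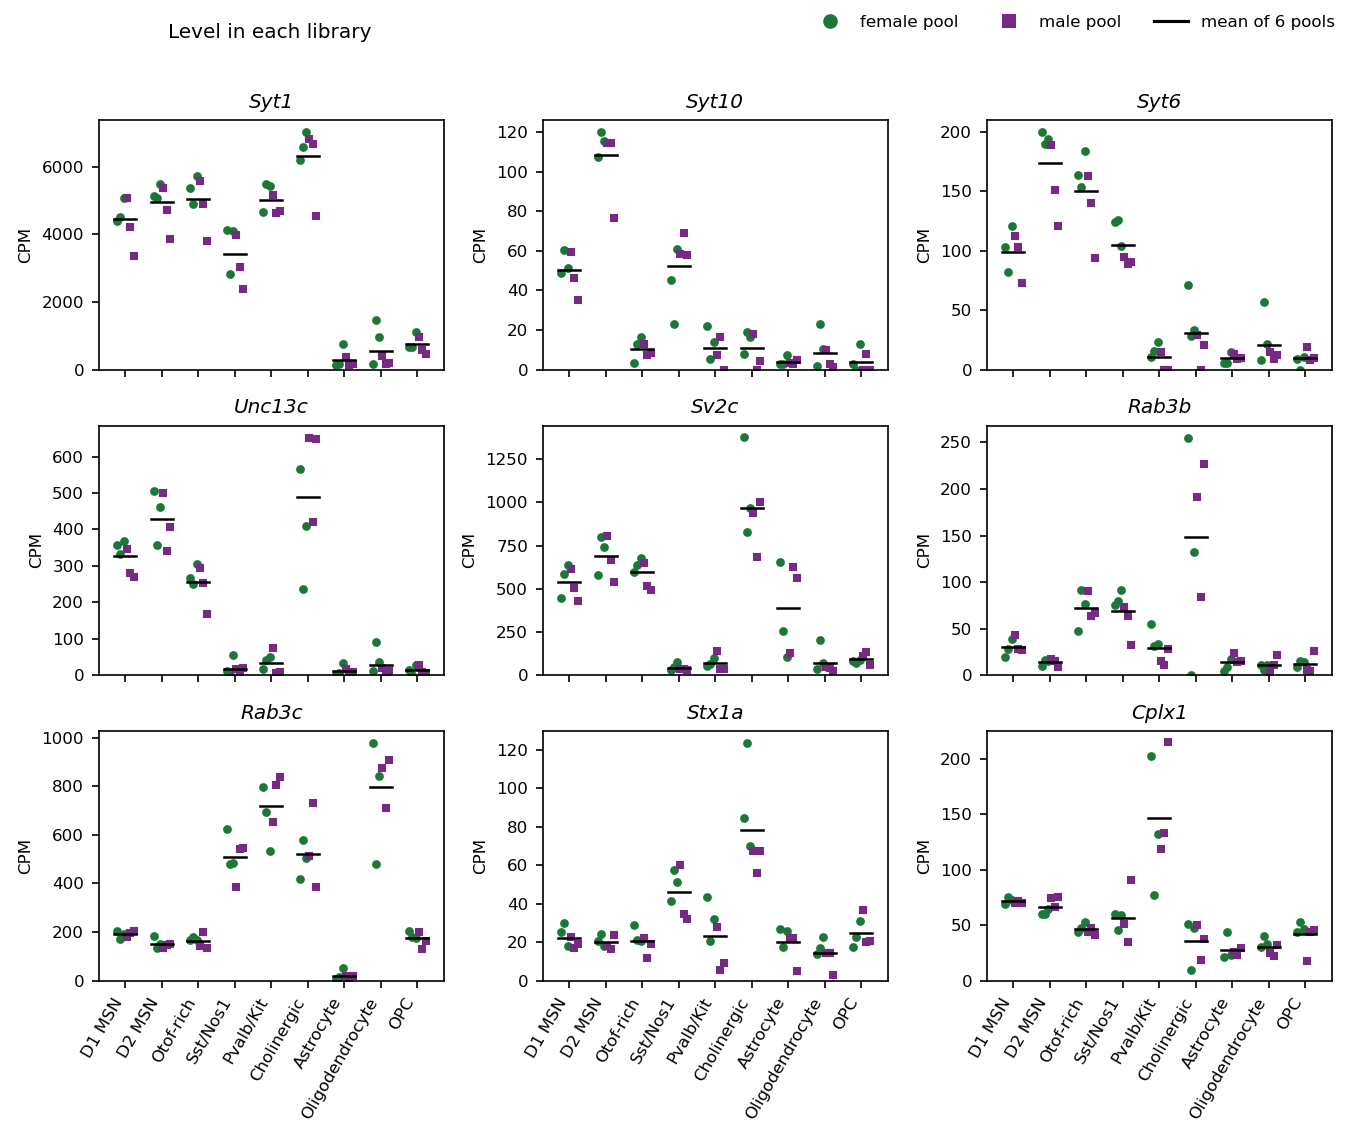
CPM (vertical axis, linear, from 0) of 9 release genes in each library for neuron and glia classes (horizontal axis), with circles for female pools, squares for male pools and a line at the mean of the 6. Syt10 is low in the Otof-rich cluster, Unc13c and Sv2c are low in both GABA interneuron classes but not in the cholinergic-like class, and Rab3c is high in the interneuron, cholinergic-like and oligodendrocyte-like classes.

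The core SNARE genes were nearly level between D1 and D2 nuclei, where none of the 4 was called. Stx1a, a syntaxin of the plasma membrane, was at 84.3, 124 and 69.7 CPM in the female pools and 67.6, 56.1 and 67.3 CPM in the male pools in cholinergic-like nuclei. In D1 nuclei it was at 25.1, 29.8 and 18.2 CPM in the female pools and 22.6, 16.7 and 19 CPM in the male pools. The ranges did not overlap and the cholinergic-like value was higher (log2 fold change 1.70, SE 0.13, adjusted p = 1.69e-12), and in Sst/Nos1 nuclei Stx1a was also higher (log2 fold change 1.14, SE 0.17, adjusted p = 2.33e-07), beside means of 14.1 to 24.7 CPM in oligodendrocyte-, astrocyte- and OPC-like nuclei. Snap25, the other plasma membrane SNARE, was at 747, 561 and 724 CPM in the female pools and 626, 502 and 438 CPM in the male pools in Sst/Nos1 nuclei. D1 nuclei had 1124, 1028 and 1046 CPM in the female pools and 984, 1055 and 979 CPM in the male pools. Every Sst/Nos1 library was below every D1 library (log2 fold change -0.92, SE 0.074, adjusted p = 6.48e-15), and Pvalb/Kit nuclei exceeded Sst/Nos1 nuclei (log2 fold change 0.75, SE 0.11, adjusted p = 2.60e-06). In cholinergic-like nuclei Snap25 was not called (0.11). Vamp2, the main vesicle SNARE of the forebrain, rose in the Otof-rich cluster (log2 fold change 0.43, SE 0.079, adjusted p = 3.52e-05) and in Pvalb/Kit nuclei (0.52). Its level in oligodendrocyte-like nuclei, 92.8 CPM, was close to that of cluster 12, the highest neuron class (94.2 CPM), and the MSN classes were below glia-like nuclei by a called -0.49. Vamp1, the vesicle SNARE common in spinal cord and brainstem, was called lower in cholinergic-like nuclei (-0.79) and in no other comparison between neuron classes that tested it. Between the GABA interneuron classes it was not tested.

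Cplx1 and Cplx2 are the main brain complexins, which bind the assembled SNARE complex. Cplx1 was at 202, 77.2 and 132 CPM in the female pools and 119, 133 and 215 CPM in the male pools in Pvalb/Kit nuclei. In Sst/Nos1 nuclei it was at 60.3, 45.8 and 58.7 CPM in the female pools and 51.1, 34.5 and 90.2 CPM in the male pools. Pvalb/Kit nuclei were higher in each library, although the ranges overlapped (log2 fold change 1.44, SE 0.17, adjusted p = 8.03e-08), and they were also above the MSN classes (log2 fold change 0.90, SE 0.12, adjusted p = 3.95e-08), while cholinergic-like nuclei (-0.78) and the Otof-rich cluster (-0.58) were below them. Cplx2 ran against Cplx1 in Pvalb/Kit nuclei, with a called difference of -1.46 from the MSN classes, and was also lower in Sst/Nos1 nuclei (-0.83) and in cholinergic-like nuclei (-0.45). Cluster 12 held the highest Cplx2, 186 to 281 CPM, and with 23.7 CPM the lowest Cplx1 of the neuron classes.

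Of the priming genes, Unc13a, which encodes Munc13-1, the main isoform of forebrain synapses, was called in 1 of the class comparisons among neurons, a rise of 0.34 in Pvalb/Kit nuclei. Unc13c encodes Munc13-3, known best from the cerebellum. In D1 nuclei it was at 357, 332 and 369.6 CPM in the female pools and 347, 281 and 269 CPM in the male pools. In D2 nuclei it was at 505, 357 and 463 CPM in the female pools and 500.1, 342 and 408 CPM in the male pools. In Sst/Nos1 nuclei it was at 11.3, 0 and 55 CPM in the female pools and 16.4, 4.92 and 19.3 CPM in the male pools. D2 was above D1 in each library, with overlapping ranges (log2 fold change 0.40, SE 0.039, adjusted p = 8.25e-11; 0.45 without female pool 2), and every Sst/Nos1 library was below every MSN library. The falls in Sst/Nos1 (log2 fold change -3.95, SE 0.17, adjusted p = 5.78e-25; -5.09 without female pool 3 and -3.37 with nuclei scored as doublets kept) and in Pvalb/Kit nuclei (log2 fold change -3.17, SE 0.15, adjusted p = 1.84e-21) left class means of 17.8 and 32.7 CPM, beside means of 12.4 to 29.0 CPM in astrocyte-, OPC- and oligodendrocyte-like nuclei and 36 CPM over 5 libraries of microglia-like nuclei. Cholinergic-like nuclei, by contrast, had 489 ± 163 CPM, which was not called against the MSN classes (log2 fold change 0.23, SE 0.10, adjusted p = 0.0694). Unc13b, which encodes Munc13-2, was at 229.8, 76 and 166 CPM in the female pools and 217, 253 and 210.5 CPM in the male pools in cholinergic-like nuclei. In Pvalb/Kit nuclei it was at 21.8, 36 and 40.3 CPM in the female pools and 22.3, 27.7 and 9.33 CPM in the male pools. The cholinergic-like libraries all lay above the Pvalb/Kit ones. Against the MSN classes Unc13b rose in cholinergic-like (log2 fold change 1.34, SE 0.11, adjusted p = 2.39e-11) and Sst/Nos1 nuclei (log2 fold change 0.91, SE 0.10, adjusted p = 2.93e-10) and fell in the Otof-rich cluster (log2 fold change -1.47, SE 0.093, adjusted p = 5.89e-16). It was lower in Pvalb/Kit than in Sst/Nos1 nuclei (log2 fold change -2.19, SE 0.21, adjusted p = 9.02e-10). OPC-like nuclei held 103.6 CPM of Unc13b, more than the MSN classes did.

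RIM proteins, which Rims1 and Rims2 encode, link vesicles and calcium channels at the active zone. Rims1 was at 2267, 3107 and 3314 CPM in the female pools and 3001, 3199 and 2092 CPM in the male pools in cholinergic-like nuclei. D1 nuclei had 955, 879 and 1251 CPM in the female pools and 1219, 939 and 802 CPM in the male pools. The cholinergic-like libraries were all higher, with a called difference of 1.26, while Rims2 was lower in the same nuclei by a called -0.96. Rims1 was also higher in Sst/Nos1 (0.42) and Pvalb/Kit nuclei (0.25), and Rims2 lower in both (-0.57 and -0.72), whereas in the Otof-rich cluster Rims1 was lower (-0.28) and Rims2 higher (0.35). Of the large scaffolds, Bsn (bassoon) was lower in Sst/Nos1 (-0.39), Pvalb/Kit (-0.21) and cholinergic-like nuclei (-0.18), and Pclo (piccolo) was higher in Pvalb/Kit nuclei (0.43) and lower in D2 than in D1 nuclei (-0.15, and -0.17 without female pool 2), all called.

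Sv2c, a vesicle glycoprotein that is enriched in the basal ganglia, was, as Unc13c was, low in both GABA interneuron classes and not in cholinergic-like nuclei. In D2 nuclei it was at 578, 799 and 742 CPM in the female pools and 803, 665 and 538 CPM in the male pools. In Sst/Nos1 nuclei it was at 30.2, 45.8 and 74.6 CPM in the female pools and 32.9, 34.5 and 32.2 CPM in the male pools. In cholinergic-like nuclei it was at 1376, 827 and 967 CPM in the female pools and 939, 683 and 1002 CPM in the male pools. Every Sst/Nos1 library was below every library of the other 2 classes, and the fall was called (log2 fold change -3.89, SE 0.12, adjusted p = 1.37e-30; -3.28 with nuclei scored as doublets kept), as it was in Pvalb/Kit nuclei (log2 fold change -2.93, SE 0.11, adjusted p = 1.54e-24). In cholinergic-like nuclei Sv2c was higher than in the MSN classes (0.53), and D2 exceeded D1 nuclei (0.37, and 0.35 without female pool 2). Pvalb/Kit nuclei were above Sst/Nos1 nuclei (log2 fold change 0.96, SE 0.24, adjusted p = 0.00225), with this sign in 5 of 6 libraries. That difference was not called without male pool 1 (adjusted p = 0.127). Astrocyte-like nuclei held 654, 254 and 104 CPM in the female pools and 126, 626 and 564 CPM in the male pools. The lowest of these are the 2 libraries whose labels are worded differently from the other 4 (female pool 3 and male pool 1), a difference that the labels do not explain. Sv2a, the SV2 form found in nearly all neurons, rose in the Otof-rich cluster (0.31) and in Pvalb/Kit nuclei (0.61).

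Of the Rab3 GTPases, Rab3a, the main form of the brain, was called among the neuron comparisons only in the Otof-rich cluster (0.25) and in Pvalb/Kit nuclei (0.60). Rab3b was at 19.2, 27.8 and 38.3 CPM in the female pools and 42.7, 27.5 and 26.5 CPM in the male pools in D1 nuclei. In D2 nuclei it was at 9.42, 16.4 and 15.1 CPM in the female pools and 17.5, 15.2 and 8.44 CPM in the male pools. In the Otof-rich cluster it was at 47.4, 91.7 and 76.2 CPM in the female pools and 90.4, 63.5 and 66.6 CPM in the male pools. The 3 ranges did not overlap, with D2 lowest and the Otof-rich cluster highest. Both differences were called, for D2 against D1 (log2 fold change -1.18, SE 0.095, adjusted p = 4.74e-13; -1.23 without female pool 2, and -0.44 with finer clusters) and for the Otof-rich cluster (log2 fold change 1.73, SE 0.084, adjusted p = 2.25e-19). Cholinergic-like nuclei had 255, 0 and 133 CPM in the female pools and 191, 84.2 and 227 CPM in the male pools. Female pool 2 had no Rab3b UMI in its 16 cholinergic-like nuclei, and the other 5 libraries all exceeded their MSN classes (log2 fold change 2.77, SE 0.21, adjusted p = 3.14e-12). Sst/Nos1 nuclei were also higher than the MSN classes (log2 fold change 1.59, SE 0.15, adjusted p = 2.67e-12) and Pvalb/Kit nuclei lower than Sst/Nos1 nuclei (log2 fold change -1.35, SE 0.25, adjusted p = 7.94e-05). Rab3c was at 797, 695 and 535 CPM in the female pools and 652, 804 and 839.7 CPM in the male pools in Pvalb/Kit nuclei. In D1 nuclei it was at 203, 173 and 192 CPM in the female pools and 179, 194 and 205 CPM in the male pools. The Pvalb/Kit libraries did not overlap with the D1 libraries (log2 fold change 1.95, SE 0.07, adjusted p = 3.69e-25), and Sst/Nos1 (log2 fold change 1.36, SE 0.066, adjusted p = 6.03e-23) and cholinergic-like nuclei (log2 fold change 1.39, SE 0.083, adjusted p = 1.50e-14) were also above the MSN classes. D2 nuclei were below D1 nuclei (log2 fold change -0.34, SE 0.041, adjusted p = 1.11e-08; -0.35 without female pool 2). Oligodendrocyte-like nuclei had 979, 479.7 and 842 CPM in the female pools and 876, 711 and 907 CPM in the male pools of Rab3c, a mean of 799 ± 179.7 CPM (SD, n = 6) that no neuron class exceeded. The oligodendrocyte-like marker genes summed to 205 to 623 CPM in Pvalb/Kit nuclei against 169 to 313 CPM in D1 nuclei and 10997 to 18151 CPM in oligodendrocyte-like nuclei, and their part in the Rab3c difference was not tested.

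The synapsins bind vesicles to the cytoskeleton and to one another. Syn2 was lower in Sst/Nos1 (-0.62) and cholinergic-like nuclei (-0.90) than in the MSN classes, higher in Pvalb/Kit nuclei (0.17), and higher in Pvalb/Kit than in Sst/Nos1 nuclei (log2 fold change 0.79, SE 0.12, adjusted p = 3.67e-06). Syn3 was lower in the Otof-rich cluster (log2 fold change -0.67, SE 0.042, adjusted p = 4.28e-16) and in Pvalb/Kit nuclei (-0.55). Syn1 was called higher in the Otof-rich cluster (0.19), Sst/Nos1 (0.40) and cholinergic-like nuclei (0.26).

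Promoter sequences, 250 bases before to 50 bases after the start of a gene, were matched by symbol for 27 of the 36 listed genes in RefSeq's annotation of GRCr8, a build other than the one used for the counts. Those of Unc13c and Sv2c, which fell in both GABA interneuron classes, and of Rab3b and Rab3c, which rose in Sst/Nos1 nuclei, are printed so that they can be set side by side. They lie at chr8:83553773-83554072, minus strand (Unc13c), chr2:29163119-29163418, minus strand (Sv2c), chr5:128858841-128859140, plus strand (Rab3b) and chr2:43575894-43576193, minus strand (Rab3c), and each is written 5′ to 3′ on the strand of its gene. Capitals mark a match, on either strand, to one of the motifs searched, here the core of the cAMP response element, TGACG, or the left part of the neuron-restrictive RE1 element, CAGCACC.
Unc13c: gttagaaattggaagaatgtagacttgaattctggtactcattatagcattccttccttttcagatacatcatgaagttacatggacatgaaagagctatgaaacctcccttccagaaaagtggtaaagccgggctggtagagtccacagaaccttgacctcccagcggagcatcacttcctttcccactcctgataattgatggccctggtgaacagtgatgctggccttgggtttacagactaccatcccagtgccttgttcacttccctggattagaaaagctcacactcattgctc
Sv2c: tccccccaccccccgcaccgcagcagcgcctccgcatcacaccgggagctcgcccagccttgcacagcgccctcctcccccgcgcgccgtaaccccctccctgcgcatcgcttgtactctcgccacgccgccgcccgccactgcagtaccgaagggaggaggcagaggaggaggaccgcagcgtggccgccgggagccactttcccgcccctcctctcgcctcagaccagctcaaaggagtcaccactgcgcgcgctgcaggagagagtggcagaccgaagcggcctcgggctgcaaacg
Rab3b: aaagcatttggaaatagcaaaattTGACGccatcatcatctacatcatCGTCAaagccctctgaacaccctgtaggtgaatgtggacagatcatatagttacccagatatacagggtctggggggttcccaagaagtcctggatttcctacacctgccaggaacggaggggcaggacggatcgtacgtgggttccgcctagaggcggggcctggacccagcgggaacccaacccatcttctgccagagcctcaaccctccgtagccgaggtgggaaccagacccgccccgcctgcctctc
Rab3c: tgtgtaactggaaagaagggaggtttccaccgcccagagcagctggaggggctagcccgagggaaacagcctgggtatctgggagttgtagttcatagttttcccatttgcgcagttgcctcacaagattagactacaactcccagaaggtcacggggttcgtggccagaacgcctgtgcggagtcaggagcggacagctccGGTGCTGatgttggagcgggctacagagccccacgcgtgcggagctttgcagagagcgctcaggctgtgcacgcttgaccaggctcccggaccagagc
The promoters of Unc13c and Sv2c differed in base composition: G and C made up 45.7% of the first and 71.7% of the second, beside 56.3% for Rab3b, 59.7% for Rab3c and a median of 51.7% over 33469 promoters. TGACG stood in 9 of the 27 member promoters, Rab3b among them, and in 21.2% of all promoters. CAGCACC stood in 6, Rab3c among them, and in 6.78% of all promoters. The full cAMP element TGACGTCA, which contains that core, stood in those of Syn1 and Vamp1 (1.83% of all), and the GC box CCCCGCCCC stood in 6 (9.73%). A match here is a description of these letters and not a binding site.

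Other genes of the release pathway were taken as 4 lists. Of the active zone scaffolds outside the members (17 tested in each comparison with the MSN classes), 8 were higher and 2 lower in cholinergic-like nuclei (58.8% called, against 44.7% of all genes), 8 and 3 in Sst/Nos1 (64.7% against 38.6%), 6 and 1 in Pvalb/Kit (41.2% against 39%, close to the background) and 4 and 5 in the Otof-rich cluster (52.9% against 28%). Their medians in this order were 0.40, 0.17, 0.18 and 0.056 on the log2 scale, where those of all genes were -0.024, -0.030, -0.020 and 0.0065. Rimbp2, which encodes a RIM-binding protein, rose in cholinergic-like nuclei by 1.80 (SE 0.10, adjusted p = 5.03e-15), and Ctbp2, whose locus also encodes the ribbon protein RIBEYE, rose in Pvalb/Kit nuclei by 1.99 (SE 0.20, adjusted p = 6.61e-11). Of the endocytosis genes (24 tested), 13 were higher and 4 lower in Pvalb/Kit nuclei (70.8% called), 12 and 7 in cholinergic-like (79.2%), 7 and 8 in Sst/Nos1 nuclei (62.5%) and 8 and 5 in the Otof-rich cluster (54.2%), against the same backgrounds. Amph (amphiphysin) rose in Pvalb/Kit nuclei by 1.18 (SE 0.072, adjusted p = 2.11e-17), and Ston2 (an endocytic adaptor for synaptotagmin) changed by -2.47 (SE 0.19, adjusted p = 8.38e-16) in Sst/Nos1 nuclei. Of the priming and fusion partners, 5 were higher and 9 lower of 24 in cholinergic-like nuclei (58.3%), 6 and 7 of 24 in Sst/Nos1 (54.2%), 5 and 6 of 25 in Pvalb/Kit nuclei (44%) and 6 and 4 of 24 in the Otof-rich cluster (41.7%), against the same backgrounds. The Pvalb/Kit share of this list stood close to its background of 39%. The dense-core vesicle priming gene Cadps2 was at 647 CPM in cholinergic-like nuclei against 30.9 in D1 and 23.8 CPM in D2 nuclei, a difference of 4.37 (SE 0.14, adjusted p = 5.30e-21). Rph3a, which encodes the Rab3 effector rabphilin, differed by 3.08 (SE 0.14, adjusted p = 5.13e-24) in Sst/Nos1 nuclei. Of the 19 vesicle membrane genes tested, 6 were higher and 5 lower in Pvalb/Kit nuclei (57.9%), 4 and 7 in cholinergic-like (57.9%), 3 and 6 in Sst/Nos1 nuclei (47.4%) and 6 and 3 in the Otof-rich cluster (47.4%), again against the backgrounds given above. Sncb differed in Pvalb/Kit nuclei by 2.21 (SE 0.15, adjusted p = 6.94e-16), and Synpr (synaptoporin) differed by -2.70 (SE 0.13, adjusted p = 2.24e-16) in cholinergic-like nuclei. Between D2 and D1 nuclei the 4 lists gave 2 higher and 7 lower of 25 priming partners (36%), 3 and 2 of 17 scaffolds (29.4%), 2 and 5 of 24 endocytosis genes (29.2%) and 0 and 3 of 19 vesicle genes (15.8%), where 14.4% of all genes were called, so the vesicle genes stood near the background.

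No release gene was called between the sexes in any of the 7 fits. With the label set as a term, edgeR's quasi-likelihood test called 0 of 34 members over all nuclei (0.0419% of all genes were called, and 2 members had an unadjusted p under 0.05) and DESeq2 called 0. The fits within classes gave 0 of 34 in D1 (background 0.0531%, 1 unadjusted), 0 of 33 in D2 (0.0575%, 1), 0 of 32 in the Otof-rich cluster (0.0723%, 0), 0 of 29 in Sst/Nos1 (0.12%, 1), 0 of 21 in Pvalb/Kit (0.106%, 0) and 0 of 31 in cholinergic-like nuclei (0.0898%, 0). DESeq2 called 0 members in each of these as well. The member with the smallest p over all nuclei was Stx1a, at 29.3, 29 and 43.6 CPM in the female pools and 39, 17.5 and 20.7 CPM in the male pools. Its female-minus-male difference was not called (log2 fold change 0.52, SE 0.16, adjusted p = 0.639), nor were those of Unc13a (log2 fold change 0.33, SE 0.14, adjusted p = 0.639) and Syt7 (log2 fold change 0.44, SE 0.22, adjusted p = 0.639). In D2 nuclei Syt6 had the smallest p, without passing the adjusted test (log2 fold change 0.37, SE 0.15, adjusted p = 0.767). In D1 nuclei the smallest p was that of Unc13c (log2 fold change 0.27, SE 0.12, adjusted p = 0.676), in the Otof-rich cluster that of Syt6 (log2 fold change 0.32, SE 0.18, adjusted p = 0.977) and in Sst/Nos1 nuclei that of Syt4 (log2 fold change -0.85, SE 0.40, adjusted p = 0.998). In Pvalb/Kit nuclei it was Snap25 (log2 fold change 0.36, SE 0.19, adjusted p = 0.976), and in cholinergic-like nuclei Syt7 (log2 fold change 0.74, SE 0.36, adjusted p = 0.9998). The median difference over the members in all nuclei was 0.17, beside -0.027 over all genes. Classes make up different shares of each library, so the values over all nuclei also carry class composition, whose part was not tested.

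**Figure D4:**
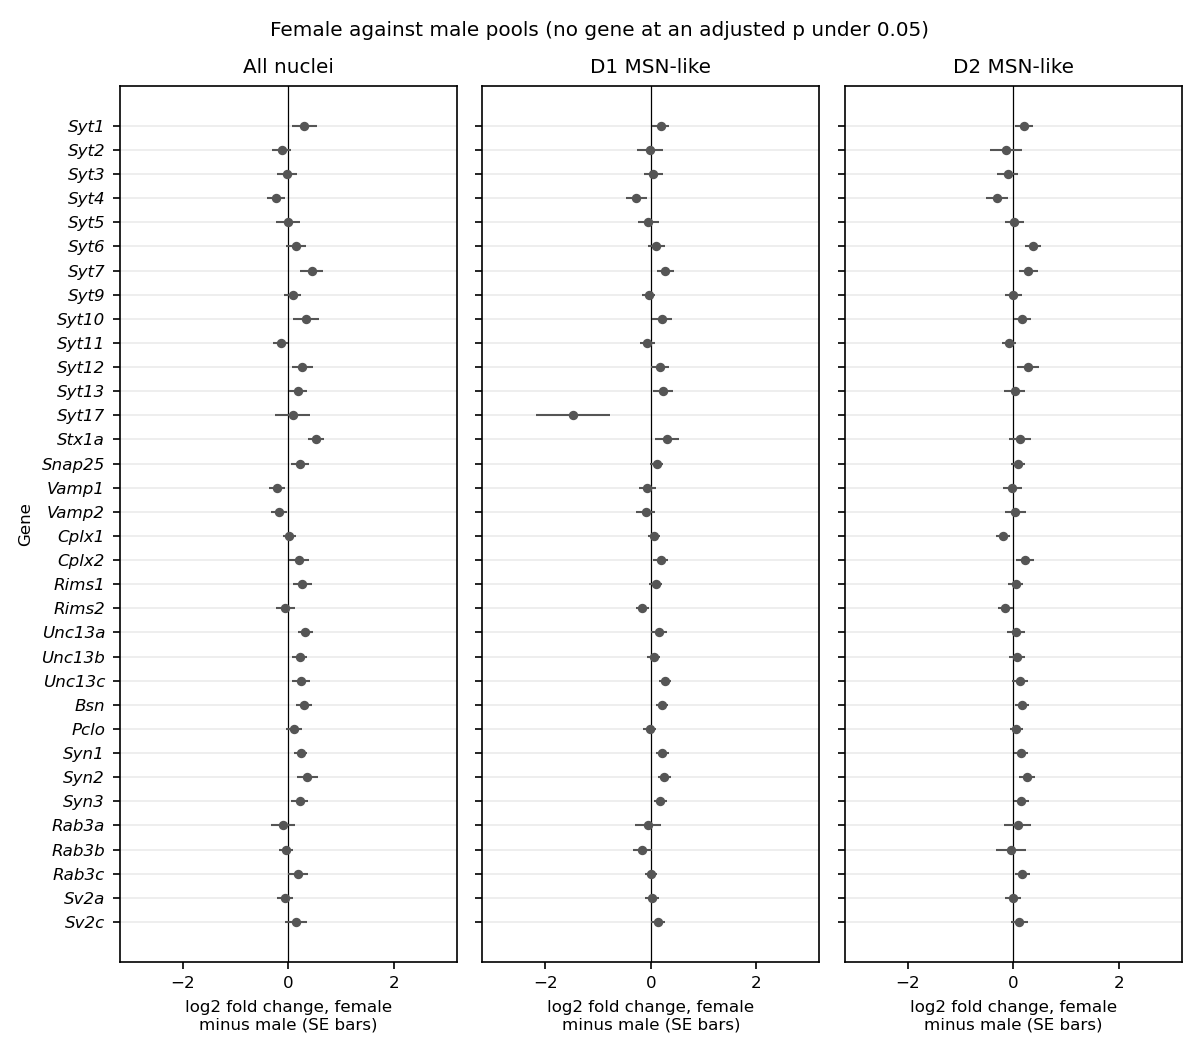
Female-minus-male log2 difference (horizontal axis) of each release gene (vertical axis) in all nuclei, D1 MSN-like nuclei and D2 MSN-like nuclei, with bars of 1 SE on either side. Points lie on both sides of 0 in each panel, and none was called at an adjusted p under 0.05.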

How the data were processed

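Single nuclei were profiled with the 10x Genomics 3′ kit, v3.1, per the labels' protocols. The authors deposited 1 matrix of raw UMI counts a library, made with Cell Ranger 4.0.0 per the file headers against rn6 per the submitters' processing notes. No source used here gives the annotation release. Nuclei with at least 500 UMIs, 300 genes and at most 5% mitochondrial UMIs were kept, and those with the highest Scrublet scores were removed at 0.8% per 1000 nuclei (2.30% to 13.2% of a library), since Scrublet's own thresholds marked 0.0114% to 39.2%. Clusters (scanpy 1.11.5, Leiden resolution 1) came from 3000 variable genes without 154 member, list and other genes that were left out, and were named from 135 of 145 markers found in the files, by rules set after the clusters' markers had been seen. Counts were summed per library and class, kept where a library held at least 10 nuclei, and fitted with edgeR 4.0.16 (TMM, filterByExpr, quasi-likelihood test) with the library as a block between classes and the label set as a term between sexes. The fit was tested on simulated counts. Kept libraries held 10776831 to 77638150 UMIs; intervals and floors cover counting error only. Named members are those called with the largest change in each direction, and between sexes those with the smallest p. Members and lists were chosen with earlier results of these data known. DESeq2 1.42.0, RLE factors, no filter on low counts, 1000 UMIs a nucleus, doublet-scored nuclei kept, resolution 1.5, other fit terms and each library left out were tried as alternatives. The planned eccentric class could not be named and was replaced by the Otof-rich cluster.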

Additional observations from a re-analysis of the deposited data

Results flagged for a closer look

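Among 63 named class differences, each taken within the 6 libraries, 7 had 1 library far from the other 5. For independent, regular values, chance alone puts about 1 in 20 groups past such a limit. That rate is no reference here, since these differences were chosen for their size and share classes and libraries. All values here are log2 differences from the class or classes compared, with 0.5 added to the counts. For D2 against D1 MSN-like nuclei, Rab3c was at -0.1282 in female pool 1 and between -0.4538 and -0.3497 in the other pools. In the Otof-rich cluster, Syt5 was at 0.7232 in female pool 3 against 1.002 to 1.163 elsewhere. Unc13b was at -2.536 there in female pool 2 against -1.689 to -1.191. In Pvalb/Kit nuclei, Rab3c was at 1.655 in female pool 3 against 2.043 to 2.267. In cholinergic-like nuclei, Syt17 was at 7.176 in female pool 1 against 3.008 to 4.169. Female pool 2 lies in that range only through the 0.5 added, since it had no Syt17 UMI in its 16 cholinergic-like or its D1 nuclei and 1 in its D2 nuclei. Rab3b was at -2.181 there in female pool 2, where it had no UMI in 16 nuclei, against 2.108 to 4.236, and Syt6 was at -4.741 in male pool 2, with no UMI in 11 nuclei, against -2.282 to -0.9824. In 6 of these 7 cases the outlying library had the same sign as the others, and Rab3b in cholinergic-like nuclei was the exception.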

How the results depend on the processing

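For named members, 985 of 996 alternative values had the direction reported above and lay on the same side of the threshold, 11 had the direction without the call, and none changed direction. Besides the calls given as lost in the report, these were Syt2, Syt7 and Syt9 in D2 against D1 nuclei and Syt4 in the Otof-rich cluster without the library block (adjusted p = 0.106, 0.859, 0.235 and 0.156), Sv2c between interneuron classes with DESeq2 (adjusted p = 0.102) and Syt11 against glia with no filter on low counts (adjusted p = 0.0698). Without the library block, 5 members were called for D2 against D1 and 12 in the Otof-rich cluster (529 and 2137 of all genes), and DESeq2 called 1149 genes for D2 against D1. With D1 nuclei from the larger cluster alone, an alternative chosen after seeing the data, 12 members were called for D2 against D1 (1704 of all genes), and Syt13 was not (adjusted p = 0.0572). Differences were then larger for Syt10 (1.29), Rab3b (-1.37), Syt9 (-0.40), Unc13c (0.52) and Rab3c (-0.39), smaller for Syt6 (0.58) and Syt2 (0.47, adjusted p = 0.00743) and -0.20 for Syt7.

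Between sexes no alternative called a member. Over all genes, DESeq2 called 16 in all nuclei. With no filter on low counts, 14 genes were called in all nuclei, 26 in D1, 62 in D2, 20 in the Otof-rich cluster, 11 in Sst/Nos1, 14 in Pvalb/Kit and 10 in cholinergic-like nuclei. With sex alone in the fit 2 were called in Pvalb/Kit nuclei. The replicate block called 3 genes in all nuclei, 3 in D1, 4 in Sst/Nos1, 1 in Pvalb/Kit and 3 in cholinergic-like nuclei, and 0 members in each. For pools with the same number, deviations over 16204 genes correlated at -0.771, 0.263 and -0.633 for numbers 1 to 3. Female pool 3 and male pool 1, the 2 libraries with differently worded labels, correlated at 0.85. With that split, the correlations cannot show whether the numbers mark pairs. The numbers were not used as pairs in the main fits. The causes of these changes were not tested.

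Leaving out each library in turn gave 12 to 13 members called for D2 against D1, 17 to 23 in the Otof-rich cluster, 23 to 26 in Sst/Nos1, 23 to 27 in Pvalb/Kit and 23 to 26 in cholinergic-like nuclei, 13 to 16 between the interneuron classes, 30 to 32 against glia and 0 in each sex fit. Over all genes it called 1679 to 1828 for D2 against D1, 3046 to 3585 in the Otof-rich cluster and 4316 to 4883 in Sst/Nos1 nuclei. It called 4481 to 5266 genes in Pvalb/Kit and 5201 to 5813 in cholinergic-like nuclei, 1304 to 1663 between the interneuron classes and 8641 to 9335 against glia. Between sexes it called 3 to 12 of all genes in all nuclei, 7 to 11 in Sst/Nos1 and 4 to 30 in Pvalb/Kit nuclei (30 without female pool 3, 28 without male pool 1).
The rarest of the 11 neuron classes limit the depth, so levels of a few CPM there rest on single UMIs. Cholinergic-like nuclei numbered 11 to 111 a library, Vip interneuron-like nuclei 16 to 149 and Pvalb/Kit nuclei 23 to 135.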

Other observations

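Of 2087 glutamatergic-like nuclei, 1654 came from female pool 3, 431 from male pool 1 and 2 from female pool 2, so no comparison includes them. The values of female pool 3 and male pool 1 follow in that order. Unc13b was at 388 and 420.1 CPM, Syt17 at 137 and 108, Stx1a at 110.5 and 117 and Rims1 at 2461 and 2325 CPM. In D1 MSN-like nuclei of the same 2 libraries these genes were at 71.3 and 69.8, 2.17 and 2.21, 18.2 and 22.6 and 1251 and 1219 CPM. Sv2c was at 67.4 and 64.4 CPM against 636 and 615 CPM, and Unc13c at 56.8 and 48.8 CPM against 369.6 and 347 CPM.

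Levels of some release genes in the classes used for levels only are given as means ± SD over 6 libraries, with no test. Pallidal-like nuclei had 149 ± 13.6 CPM of Cplx1 and 182 ± 44.3 CPM of Sv2a, and Vip interneuron-like nuclei had 162 ± 98.3 CPM of Rab3b and 112 ± 55.5 CPM of Syt4. In cluster 12, Syn2 was at 1342 ± 263 CPM and Syt7 at 36.8 ± 10.3 CPM, the highest and the lowest means of these genes over the 11 neuron classes.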
